A study of Mus musculus with 28 samples.

Results

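Coronal fractions 1 to 3 lie at the caudal end of a mouse brain that was cut from back to front into 12 fractions, and they are compared here with fractions 4 to 12 of the same brain. These 3 fractions are defined by their number in the coronal plane, a rule that holds no measured level, and are 3 of the 12 coronal and 3 of the 28 fractions of the series. In Transcriptome Tomography a frozen brain is sectioned along 1 body axis, consecutive sections are pooled into a fraction, and the RNA of each fraction is hybridised to an array, so that a level is tied to a position. The coronal fractions on both sides of the comparison come from 1 male C57BL/6J mouse at 3 weeks of age (mouse 1) that was kept free of pathogens, and the horizontal and sagittal series come from another mouse each. A fraction was hybridised once, so the 3 caudal arrays are 3 neighbouring positions and not replicates, and every SE and p-value below measures a shift between 2 runs of positions in this brain. Neighbouring fractions hold adjoining tissue, which makes each p-value a lower limit that describes this brain alone. The label of fraction 12 names a following fraction pooled with it.

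The hindbrain and the cerebellum are the caudal parts of the brain. The cerebellar cortex is built from a few cell types in a fixed circuit. Granule cells, the most numerous neurons of the brain, send parallel fibres to the Purkinje cells, Purkinje cells carry the only output of the cortex and inhibit the deep nuclei, and Bergmann glia enwrap Purkinje cell synapses. Below the cerebellum lie the pons and medulla, which hold cranial motor nuclei and monoamine nuclei, and there the Hox transcription factors keep the positional code set up in the embryo, with expression reaching a different rostral limit for each gene. Projection neurons of the cerebral cortex are marked by other factors, such as Emx1.

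Levels below are log2 of the processed signal after subtraction of the 75th percentile of the array, so that 1 unit is a 2-fold change. A level is called above background where the scanner software set its flag for a signal well above it. A difference is the mean of fractions 1 to 3 minus the mean of fractions 4 to 12, with the SE of the fit, and a probe is called higher or lower where limma gave a Benjamini-Hochberg adjusted p under 0.05 over all probes tested. Levels are compared between fractions and never between genes. In such bulk samples, fewer cells of a type and less RNA per cell cannot be told apart.

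The 3 genes that mark cerebellar neurons were high in every caudal fraction, and the label of the caudal end held for them. Pcp2, a Purkinje cell protein, had levels of 8.67, 8.92 and 8.63 in fractions 1, 2 and 3, and from -0.23 through a median of 1.21 to 6.96 in the other 9. Cbln1, the granule cell protein that joins parallel fibres to Purkinje cells, had levels of 5.32, 6.19 and 6.19, against 0.09 to 4.33 with a median of 1.96. Gabra6, the GABA-A receptor subunit of granule cells, had levels of 3.63, 4.91 and 4.83, against -6.54 to 2.63 with a median of -4.45. For each of these genes the 3 caudal fractions lay above all others, and the highest of the other 9 was fraction 4, next to the caudal 3.

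The difference was 6.90 ± 1.09 (SE) for Pcp2 and 4.18 ± 0.71 for Cbln1, an 18.1-fold difference, with limma adjusted p of 0.00112 and 0.00173. Gabra6 was above background in 2 of fractions 4 to 12, and was tested for its signal in the 3 caudal fractions alone. Its difference of 8.54 ± 1.45 thus rests in part on signals not well above background (limma, adjusted p = 0.00178). In the other planes the same genes were not held to 1 end: Pcp2 was highest in horizontal fraction 3 (7.32) and sagittal fraction 8 (7.88), and lowest in fraction 1 of each (2.13 and 0.15).

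**Figure D1:**
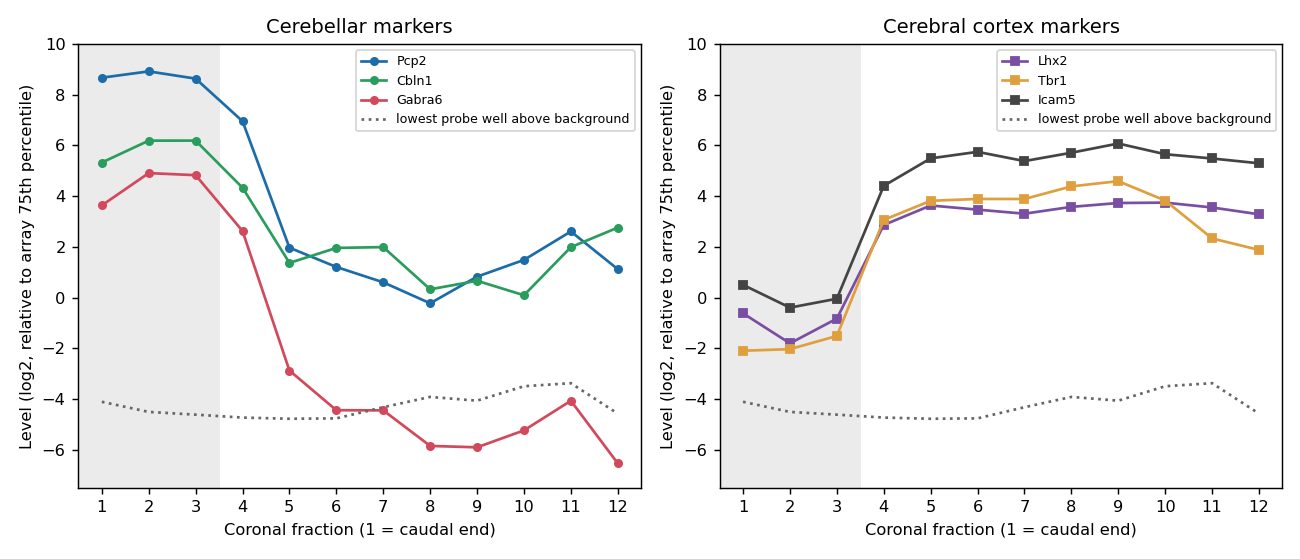
Level (log2, relative to the 75th percentile of the array) of 3 cerebellar and 3 cerebral cortex genes in coronal fractions 1 to 12, 1 array a point, with the caudal fractions shaded. The dotted line marks, for each array, the lowest level among its probes well above background. Pcp2, Cbln1 and Gabra6 fall between fractions 3 and 5, with fraction 4 in between, and Lhx2, Tbr1 and Icam5 rise between fractions 3 and 4.

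The start regions of Pcp2 and Gabra6 are shown because these are the marker genes of the Purkinje cell and the granule cell with an entry in the RefSeq promoter table (assembly GRCm38.p6), and because Rora, a nuclear receptor that Purkinje cells need and that binds the half-site AGGTCA, is among the genes measured. Each line gives the 250 bases before the start of the gene on the minus strand, at chr8:3625548-3625797 for Pcp2 (the start farthest upstream of 4 in the table) and chr11:42321073-42321322 for Gabra6, and capitals mark AGGTCA or its reverse complement TGACCT.
Pcp2: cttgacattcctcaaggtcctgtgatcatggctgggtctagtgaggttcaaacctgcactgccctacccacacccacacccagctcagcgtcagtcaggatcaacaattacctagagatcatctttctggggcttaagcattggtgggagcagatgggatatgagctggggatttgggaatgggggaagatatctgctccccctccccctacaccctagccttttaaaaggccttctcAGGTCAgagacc
Gabra6: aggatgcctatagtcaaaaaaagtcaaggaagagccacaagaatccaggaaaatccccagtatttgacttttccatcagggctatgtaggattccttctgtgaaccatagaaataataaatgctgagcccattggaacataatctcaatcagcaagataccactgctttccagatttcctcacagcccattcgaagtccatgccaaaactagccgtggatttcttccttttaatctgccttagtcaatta
The Pcp2 window held 1 match, from 12 to 7 bases before the start, and the Gabra6 window held 0. AGGTCA was present on either strand in 13.8% of the windows of all 27025 genes in the table, in 10.9% of 11183 windows of tested genes, in 13.5% of 1002 windows of genes called higher in fractions 1 to 3 and in 9.10% of 857 windows of genes called lower. A match is a description of the letters only. Rora itself had levels of 2.85, 3.21 and 2.90 in fractions 1 to 3, above the 0.63 to 2.07 (median 1.21) of the others, a difference of 1.65 ± 0.27 (limma, adjusted p = 0.00148).

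Across the array, 4010 of 26664 probes tested were called in either direction (15%). Of these, 2212 (8.3%) were higher in fractions 1 to 3 and 1798 (6.74%) were lower, and 8074 probes had an unadjusted p under 0.05. Higher probes were 55.2% of the calls, and 47.8% of the 3445 calls made with scaling to the array median. Counted by gene symbol, 1274 of 14099 were higher and 1111 lower. The median difference over all probes was 0.02, against 1.02 for those called higher and -1.10 for those called lower. More than 2-fold differences were found for 1130 probes called higher and 1007 called lower, and more than 8-fold differences for 150 and 124. In 2160 probes (8.1%) all 3 caudal fractions lay above all 9 others, and in 1742 (6.53%) they lay below them. Among the called probes, the sides did not overlap for 1737 of those higher and 1396 of those lower.

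These counts depend on how a probe entered the test and on the slides. A probe was tested where it was above background on all arrays of at least 1 side: 23056 passed on both sides, 3360 through fractions 1 to 3 alone and 248 through fractions 4 to 12 alone, and a probe that passed through 1 side alone was taken for its signal on that side. Among the 23056, the called numbers were nearly level, with 1618 higher and 1611 lower. Per the file headers, fractions 1 and 2 were on 1 slide, 3 to 10 on another and 11 and 12 on another, so slide and position are partly the same. Within the slide that held fractions 3 to 10, fraction 3 alone differed from 4 to 10 for 540 probes higher (2.03%) and 883 lower (3.31%), with fraction 3 assumed to vary like the others. Of the 2212 called higher, 411 were called again there, and of the 1798 called lower, 738 were. Fractions 3 to 10 are part of both comparisons, so these counts are no independent check. With slide as a fixed term, 690 (2.59%) were higher and 1078 (4.04%) lower, and since only this slide holds both sides, that fit rests on the same differences with another estimate of the spread. Higher probes were 39.0% of the calls with the fixed term and 37.9% within the slide. Leaving out fraction 1 left 1479 higher and 1254 lower, leaving out fraction 2 left 839 and 876, and leaving out fraction 3 left 1373 and 1198. List counts below without 1 of these fractions are to be set beside these totals.

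Most genes of the Purkinje cell list were higher caudally. All 12 listed genes were tested, and 11 were called higher and 0 lower, with a median difference of 3.19, beside the 8.3% of all probes called higher. Of the 12, 5 passed the filter through the caudal side alone, and 6 of the 7 above background on both sides were called. This list and those below were drawn up with earlier results of these data known. Car8, which binds the IP3 receptor, had levels of 2.20, 3.44 and 3.95 in fractions 1 to 3 and -2.88 to 1.84 (median -1.29) elsewhere, a difference of 4.49 ± 0.74 (limma, adjusted p = 0.00152). Slc1a6, the Purkinje cell glutamate transporter EAAT4, had levels of 6.13, 7.05 and 6.57 against 1.90 to 5.21 (median 2.94), a difference of 3.61 ± 0.54 (limma, adjusted p = 0.000781). In both genes the caudal fractions lay above all others, fraction 2 or 3 was the highest, and fraction 4 was the highest of the rest.

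Fraction 4 was the highest of the rest in 8 of the 12 genes, and the differences of the others called varied in size. Ppp1r17, a phosphatase inhibitor of Purkinje cells, had levels of 2.56, 3.50 and 3.46 and was above background in 7 of the 9 other fractions, where it ran from -5.11 to 1.44 (difference 5.78 ± 1.02). Itpr1, the IP3 receptor that releases calcium in their dendrites, was present throughout, with levels of 6.18, 6.83 and 6.83 against 3.54 to 5.52, the highest of these in fraction 9, a difference of 1.94 ± 0.41. The factors Lhx1 and Lhx5, which act in Purkinje cell development, differed by 3.49 ± 0.42 and 3.98 ± 0.92, and were above background in 3 and 6 of the other 9 fractions. Without fraction 2, 8 of the 12 genes were called, beside 839 of all 26664 probes called higher. Lhx5 was among those lost (limma, adjusted p = 0.0682). Itpr1 stood at the threshold there.

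The granule cell list gave a similar count, with 11 of 12 genes called higher (8.3% of all probes), 0 lower and a median difference of 2.98, and 9 of the 10 that were above background on both sides were called. Neurod1, a proneural factor that granule cells keep, had levels of 2.43, 3.51 and 3.13 against -3.05 to 0.89 (median -2.36), a difference of 5.02 ± 0.67 (limma, adjusted p = 0.000378). Fat2, a protocadherin of granule cell parallel fibres, had levels of 3.19, 4.58 and 4.06 against -1.74 to 2.25 (median -1.21), a difference of 4.77 ± 0.67 (limma, adjusted p = 0.000497). Cbln3, a partner of Cbln1, had levels of 0.60, 1.27 and 1.72 and was above background in 1 of the other fractions, fraction 4 being the highest at -0.83. In each of these genes the 2 sides did not overlap.

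Granule genes that the forebrain also uses are measurable in every fraction. Zic1, a zinc finger factor of dorsal neural tissue, had levels of 6.50, 7.39 and 7.17 against 3.07 to 5.57 (difference 2.80 ± 0.44). Etv1, an ETS factor also found in cortical projection neurons and the olfactory bulb, had levels of 5.60, 6.46 and 6.17 against 3.79 to 5.36, and there the highest of the others was fraction 12 and not 4 (difference 1.61 ± 0.30). Grin2c and Gabrd, the NMDA and GABA-A receptor subunits of mature granule cells, differed by 1.51 ± 0.20 and 1.26 ± 0.29. Barhl1, a homeobox factor of granule cell precursors, was not called. Its levels of 0.33, 0.27 and 0.86 lay inside the range of the others (-0.15 to 1.73; limma, adjusted p = 0.638). Without fraction 2, 9 of the 12 were called, and Gabrd was among those lost (limma, adjusted p = 0.092).

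Bergmann glia genes were higher caudally too, 5 of 6 being called, beside 8.3% of all probes, with a median difference of 1.71, and all 6 were above background on both sides. Gdf10, a secreted TGF-beta family member of these glia, had levels of 3.62, 3.83 and 3.61 against -1.32 to 1.71 (median -0.42), a difference of 4.02 ± 0.46 (limma, adjusted p = 0.00017). Wif1, a Wnt inhibitor, had levels of 0.57, 1.32 and 0.17 against -2.33 to -0.87 (difference 2.32 ± 0.34), and Hopx, a homeodomain-only protein, had 4.37, 4.14 and 3.72 against 1.47 to 2.96 (difference 1.79 ± 0.29). Fabp7, a fatty acid binding protein that olfactory ensheathing glia also make, was not called, with 3.35, 3.16 and 3.15 caudally and its highest level, 7.44, in fraction 12. Without fraction 2 or without fraction 3, 4 of the 6 were called, beside 839 and 1373 of all 26664 probes called higher.

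The list of interneurons and unipolar brush cells was divided, with 2 of 6 tested genes higher and 2 lower (8.3% and 6.74% of all probes), 2 more of its 8 genes being below the filter. Tfap2b, a factor of cerebellar GABAergic neurons, had levels of 1.05, 1.72 and 1.55 against -3.78 to 0.65 (difference 3.54 ± 0.81; limma, adjusted p = 0.0103). Kit, the receptor on molecular layer interneurons, had 2.76, 3.05 and 2.61 against 0.41 to 1.82. Sorcs3, a sorting receptor also found in cortex and hippocampus, and Grm2, a glutamate receptor that cortex and dentate gyrus share, were lower, by -0.97 ± 0.24 and -0.91 ± 0.17. Eomes, which marks unipolar brush cells caudally and mitral and tufted cells rostrally, had levels of 0.43, 1.29 and 1.01 and reached 3.86 in fraction 12, and the difference of 2.54 ± 1.63 was not called (limma, adjusted p = 0.315). Without fraction 2, Tfap2b (limma, adjusted p = 0.0629) and Sorcs3 (0.0639) were not called, nor was Sorcs3 without fraction 3 (0.0925).

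With slide held fixed by comparing fraction 3 with 4 to 10 alone, all 12 Purkinje genes, 11 of 12 granule genes and all 6 Bergmann genes had positive differences, with list medians of 3.08, 3.31 and 1.44. Fabp7 was among them, with a difference of -0.66 over all fractions. Fewer genes of each list were called there, as were fewer of all probes. Of the 6 interneuron and unipolar brush cell genes 3 were positive there, and limma called 0, with 3 higher and 2 lower at an unadjusted p under 0.05. Pcp2 differed by 6.80 there and Cbln1 by 4.66, so their sizes stayed and their calls did not. Gabra6 differed by 8.56, in part on signals not well above background, so its size is not read, and it was not called either. In each of these 3 genes fraction 4, which stays on the other side of that comparison, was the highest of the 9.

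The 20 genes with the largest higher differences, among probes above background on all 12 arrays, included several described above. Beside Pcp2, Neurod1, Fat2, Car8, Cbln1, Gdf10, Slc1a6 and Tfap2b they included En2, the engrailed factor that patterns midbrain and cerebellum, with levels of 3.45, 4.43 and 4.02 against -2.87 to 2.29 (difference 5.32 ± 0.82; limma, adjusted p = 0.000965). Pvalb, the calcium buffer of fast-spiking neurons including Purkinje cells, had levels of 8.38, 8.52 and 8.14 against 2.36 to 6.89 (difference 3.50 ± 0.66). Aqp6, an aquaporin, had 1.87, 2.37 and 1.89 against -3.10 to 0.11 (difference 4.34 ± 0.51), and Il16, which also has a neuronal form in the cerebellum, had 2.34, 3.23 and 3.05 against -2.15 to 1.11 (difference 3.89 ± 0.52).

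Among the remaining genes of these 20, Atp2a3, a calcium pump of the endoplasmic reticulum, differed by 3.67 ± 0.40, Kcng4, a modifier subunit of potassium channels, by 3.46 ± 0.51, and Jaml, a junctional adhesion molecule, by 3.26 ± 0.38, each with no overlap between the sides. Ldoc1 differed by 3.17 ± 0.49. For a further 3 genes the levels within the caudal end are given. Lingo4, a leucine-rich repeat protein, was highest in fraction 1 (3.29, 2.58 and 2.10, against -1.91 to 1.91), Klk6, a protease of oligodendrocytes, stood at 2.47, 2.03 and 2.37 against -2.15 to 2.03, and Gchfr, which regulates the enzyme that starts biopterin synthesis, stood at 2.53, 2.80 and 1.55 against -2.36 to 1.92. Fraction 4 was the highest of the others in Lingo4, Klk6 and Gchfr, and Gchfr in fraction 3 lay below it. Gchfr was not called without fraction 1 (limma, adjusted p = 0.0582) or 2 (0.0869).

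The long non-coding gene Gm2694 was also among the 20, and in the RefSeq table (GRCm38.p6) it is the next gene to Cbln1 on chromosome 8. Its levels were 4.00, 4.70 and 4.03 in fractions 1 to 3 and -0.76 to 2.19 (median 0.02) in the others, a difference of 3.79 ± 0.56 (limma, adjusted p = 0.000744) beside the 4.18 of Cbln1. Of the probes that the array names by a genomic interval and not by a gene, 279 of 3729 tested were higher (7.48%) and 159 lower (4.26%), against 9.09% and 7.45% of 18458 RefSeq coding probes and 7.45% and 7.80% of 577 RefSeq non-coding probes. Single interval probes were ranked only among those called and above background on all 12 arrays, with the intervals of 1 other chromosome left out. The 3 with the largest higher differences, picked after their values were seen, all lie on the forward strand of chr8. In the mm9 build used by the array, 2 are at chr8:90048940-90049461 and 1 is at chr8:89996710-90049453, an overlapping interval. The longer interval is as long as Gm2694 to within 1 base and lies on the same chromosome in the older build, so these probes may read Gm2694 and are not counted as further loci. Their differences were 3.47 ± 0.47, 3.20 ± 0.43 and 3.19 ± 0.42. The lowest of the ranked probes, also picked after their values were seen, were chr4:124127144-124334840 (-2.51 ± 0.51), chr1:196445304-196445818 (-2.45 ± 0.42) and chr15:84737071-84753414 (-2.18 ± 0.45), all on the reverse strand.

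Hox genes, the hindbrain part of the comparison, had their highest levels at the caudal tip. Of 39 Hox genes on the array, 14 were above background in all 3 caudal fractions and so were tested, each through the caudal side alone, and 13 of these 14 were called higher with a median difference of 4.38. The filter makes a difference likely for such genes, so the count is given beside the 8.3% of all probes without further reading. Hoxb5 had levels of 3.82, 2.79 and -2.63 in fractions 1, 2 and 3, and -6.36 to -1.86 (median -5.68) in the others, where it was above background in 2. Hoxb6 had 4.06, 1.36 and -3.75 against -4.79 to -2.90, and Hoxb4 had 1.80, 1.46 and -2.39 against -6.90 to -2.34. In these 3 genes fractions 1 and 2 stood above all others and fraction 3 lay within the range of fractions 4 to 12.

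The drop from fraction 1 to fraction 3 differed in place among Hox genes. Hoxb6, Hoxb5, Hoxb3, Hoxa7, Hoxb4 and Hoxc4 had the largest falls among all called higher probes. Hox genes without signal above background in all 3 caudal fractions were not tested, and some of these fell steeply too. Hoxb7, at 2.40, -2.10 and -6.55, and Hoxc6, at 0.84, -1.77 and -6.35, were above background in 2 of the 3. Others were not above background in any. Hoxa7 was at 0.93 in fraction 1 and already low in the next, at -2.26, then at -3.27, whereas Hoxc4 held at 2.76 and 2.43 before -0.89 in fraction 3. Hoxb3 stepped down from 1.01 through -0.49 to -3.32. Hoxa2, whose expression reaches farther forward in the embryo, went from -1.05 through -1.69 to -2.79, and Hoxa3 from 0.39 through -0.16 to -1.83. In all, 13 of the 14 were highest in fraction 1 and Hoxd4, at -0.25 and 0.01 in fractions 1 and 2, was the exception. Hoxa9 was the gene not called, at -2.94, -3.83 and -4.19 against -4.51 to -3.54 (limma, adjusted p = 0.469).

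**Figure D2:**
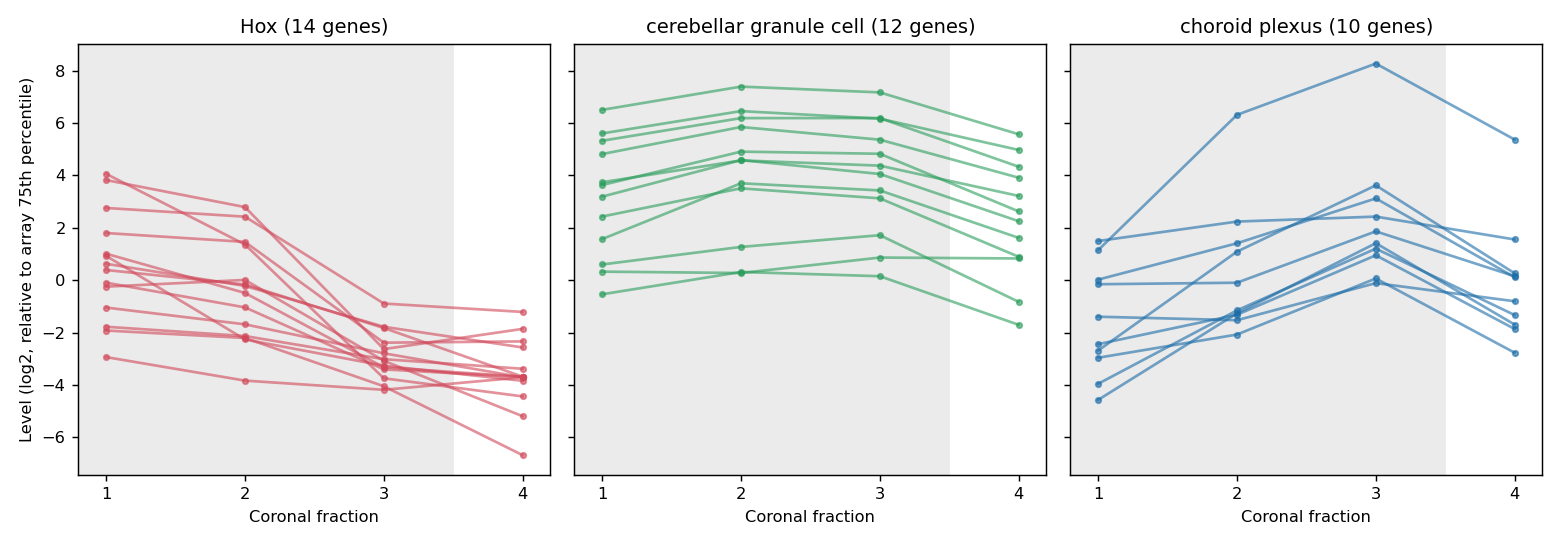
Level (log2, relative to the 75th percentile of the array) of the tested Hox, granule cell and choroid plexus genes in coronal fractions 1 to 4, 1 line a gene and 1 array a point, with the caudal fractions shaded. Points below about -4 are signals near or under background. Hox lines fall from fraction 1 to 3, most granule cell lines peak in fraction 2 or 3, and choroid plexus lines climb to fraction 3.

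Because slide 1 held fractions 1 and 2 and slide 2 held fraction 3, the Hox step between fractions 2 and 3 also crosses slides. Within the slide of fractions 3 to 10, fraction 3 was above the mean of fractions 4 to 10 for 13 of the 14 genes. Most of them were not called there, and the signals were in part not well above background. Among these genes, Hoxb5 and Hoxb4 were higher in fraction 4 than in fraction 3. Leaving out 1 fraction at a time lost the call of Hoxb6 without fraction 1 (limma, adjusted p = 0.0518) or 2 (0.0689) and that of Hoxa7 without fraction 2 (0.0578).

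Other patterning factors were mixed, with 4 of 13 tested genes higher and 2 lower (8.3% and 6.74% of all probes), 9 of the 13 having passed through the caudal side alone and 1 through the other side, and 1 of the 3 above background on both sides was higher. Pax8, a paired box factor of the hindbrain, had levels of -0.91, -1.83 and -2.72 and was above background in 1 of the others (difference 4.06 ± 0.52). All 5 Iroquois genes had their highest level in fraction 4, so the sides overlapped. Irx3 had -0.27, 0.11 and 0.04 caudally and 0.16 in fraction 4 (difference 3.30 ± 1.18; limma, adjusted p = 0.0765), and Irx1 and Irx2 reached 2.00 and 0.62 there. Irx5, which passed through the caudal side alone, was the Iroquois gene called, with -2.50, -2.74 and -2.44 against -6.32 to -2.43 (difference 2.33 ± 0.72; limma, adjusted p = 0.0448), and it lost the call without any 1 of fractions 1 to 3 or 7 to 12 (limma, adjusted p from 0.0501 to 0.135). Of the genes called lower, Egr2, which patterns the embryonic hindbrain and is an activity-dependent gene in the postnatal forebrain, was not above background in any caudal fraction and ran from -2.21 to 0.61 elsewhere, at least 12.8-fold higher there (limma, adjusted p = 5.32e-05). Gbx2, a factor of both hindbrain and thalamus, was not called and peaked at -0.71 in fraction 7. Without fraction 4 the list had 7 genes higher, Irx1 (limma, adjusted p = 0.0237) and Irx3 (0.0247) among them, and without fraction 2 it had 3 higher and 1 lower. Within the slide of fractions 3 to 10, limma called 0 higher and 2 lower, with 3 higher at an unadjusted p under 0.05.

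Cranial motor and cholinergic genes gave 5 of 9 tested genes higher and 0 lower, beside 8.3% and 6.74% of all probes, 4 of the 9 having passed through the caudal side alone and 2 of the other 5 being called. Phox2a, a factor of autonomic and noradrenergic neurons, had -1.41, -1.66 and -2.29 with -1.36 in fraction 4, the 1 fraction of the other 9 where it was above background (difference 3.95 ± 0.90; limma, adjusted p = 0.0107). Prph, the intermediate filament peripherin of motor and sensory neurons, had 0.57, 1.78 and 1.34 against -3.03 to 0.59. The list member not tested, Isl1, was above background in 0 of the 3 caudal fractions and in 5 of the other 9. Its levels were -5.82, -5.63 and -4.47 caudally and reached -0.99 in fraction 8. Genes of acetylcholine handling, which basal forebrain and striatum also use, were not called. Chat, the synthetic enzyme, had 0.19, 0.15 and 1.32 against -1.99 to 1.11, and Slc18a3, the vesicular transporter, had 1.45, 2.25 and 1.84 against -2.59 to 1.39 (limma, adjusted p = 0.528 and 0.0868). The list rests on few arrays: 1 of the 9 genes was called without fraction 1 and 1 without fraction 2, and 2 were without fraction 3, Prph having adjusted p of 0.0548, 0.151 and 0.0908 and Phox2a 0.0501 and 0.0588 without fractions 1 and 2. Within the slide of fractions 3 to 10, limma called 0 of the 9, with 1 at an unadjusted p under 0.05.

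No gene of the monoamine list was called in limma's adjusted test (0 of 8), beside 8.3% of all probes higher and 6.74% lower. Of the 8, 4 passed the filter through the caudal side alone, and 2 had an unadjusted p under 0.05. The highest level of 7 of them lay in fraction 4 or 5, on the other side of the divide. Dbh, which makes noradrenaline, had levels of 1.47, 1.42 and 0.98 caudally, 2.88 in fraction 4 and -2.18 at the lowest (difference 2.45 ± 0.84; limma, adjusted p = 0.0669, and 4.18e-05 without fraction 4). Tph2, the enzyme of serotonin synthesis in the raphe, had -3.02, -1.51 and -2.48, against 0.01 in fraction 4. Slc6a4, the serotonin transporter, had -2.01, -0.88 and -2.17, against 1.04 in fraction 4. Without fraction 4 limma called 2466 probes higher, among them Dbh, Tph2 and Gata2, 3 of the 8. Of these 3, Tph2 had passed the filter through the caudal side alone.

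Of glycinergic genes 1 of 6 tested was called higher, beside 8.3% of all probes, and 2 had an unadjusted p under 0.05. The gene called passed the filter through the caudal side alone, and limma called 0 of the 5 above background on both sides. It was Glra1, the adult glycine receptor subunit of brain stem and spinal cord, with -0.46, -1.34 and -1.77 against -6.15 to -1.95, and it was above background in 3 of the other fractions (difference 3.59 ± 0.83; limma, adjusted p = 0.0111). Slc6a9, the glial glycine transporter, had 6.95, 6.41 and 6.33 against 3.88 to 6.22, and its difference of 1.33 ± 0.44 missed the threshold (limma, adjusted p = 0.0613). Glrb, Gphn and Slc32a1, which inhibitory synapses share across the brain, differed by 0.21 ± 0.23, 0.12 ± 0.21 and 0.23 ± 0.31. Glra1 was not called with slide as a fixed term (limma, adjusted p = 0.27), within the slide of fractions 3 to 10 (0.334), or without fraction 1 (0.0608) or 2 (0.0523), and Slc6a9 was called without fraction 4 (0.0372) or 12 (0.0309).

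Genes of fast-firing neurons gave 6 of 14 higher and 0 lower, beside 8.3% and 6.74% of all probes, with a median difference of 1.40, all 14 above background on both sides. Kcnc1, a potassium channel that allows fast repolarisation, had levels of 3.44, 3.83 and 3.32 against 0.80 to 2.67 (median 1.88), a difference of 1.72 ± 0.30 (limma, adjusted p = 0.00192). The neurofilament genes Nefh, Nefm and Nefl, which fill large axons, were all higher, by 1.91 ± 0.49, 1.52 ± 0.44 and 1.14 ± 0.30. Nefh stood at 6.46, 6.31 and 6.51 and at 6.31 in fraction 4, so the sides met. Within the slide of fractions 3 to 10, 12 of the 14 were positive, 4 had an unadjusted p under 0.05 and 0 were called by limma. Without any 1 of the caudal fractions, 3 of the 14 were called, the neurofilament genes being those lost (limma, adjusted p from 0.0656 for Nefh without fraction 1 to 0.117 for Nefm without fraction 2), and without fraction 4 there were 8 higher and 1 lower.

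**Figure D3:**
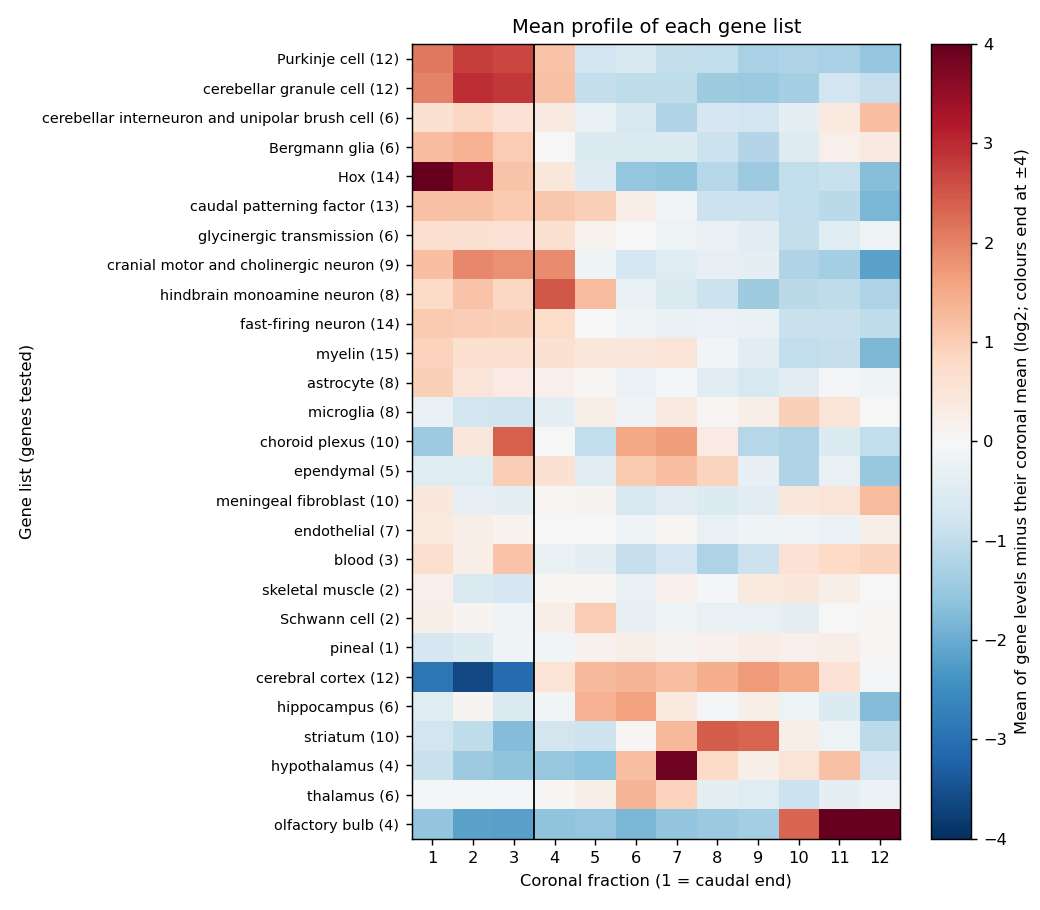
Mean level of the tested genes of 27 lists in coronal fractions 1 to 12, as log2 after subtraction of the mean of each gene over the 12 fractions, with colours ending at ±4 and the number of genes in brackets. The line separates fractions 1 to 3 from 4 to 12. The Purkinje cell row stands at 2.12, 2.75 and 2.68 in fractions 1 to 3, the Hox row at 4.56, 3.61 and 1.15, and the cerebral cortex row at -2.88, -3.62 and -3.08.

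Of 15 myelin genes, 2 were called higher, beside 8.3% of all probes, and 5 had an unadjusted p under 0.05. The 2 were Gjb1, a connexin of oligodendrocytes (1.55 ± 0.47), and Aspa (0.93 ± 0.29), and all 15 differences were positive with a median of 0.93. Fraction 12 held the lowest level of all but Aspa, as for Mobp, a basic protein of myelin (7.67, 7.30 and 7.23 caudally, 4.97 in fraction 12). Mbp, the basic protein of myelin, had 7.63, 6.75 and 6.71 against 3.25 to 6.40 on its brightest probe (1.61 ± 0.51; limma, adjusted p = 0.0506), and 2 other probes of the gene gave -0.72 and -0.58. Of 8 astrocyte genes, 2 were called higher, beside 8.3% of all probes, and 6 had an unadjusted p under 0.05. The water channel Aqp4 (1.47 ± 0.24) and S100b, a calcium-binding protein (1.39 ± 0.27), were higher, and all 8 were highest in fraction 1 among the caudal 3. Gfap, the filament of fibrous astrocytes, had 5.19, 4.17 and 3.93. Without any 1 of the caudal fractions neither Gjb1 nor Aspa was called (limma, adjusted p from 0.0939 to 0.152), nor without fraction 8, 9 or 11, whereas Mbp was called without fraction 4 (0.0341), 5 (0.0498) or 12 (0.00889) and Aqp4 and S100b were called each time. In the comparison within 1 slide limma called 0 of the 15 myelin and 0 of the 8 astrocyte genes, with 0 and 2 higher and 0 and 1 lower at an unadjusted p under 0.05, and Aqp4 had an adjusted p of 0.0724.

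Microglial genes went the other way. All 8 differences were negative with a median of -0.77, and 4 were called lower, beside 6.74% of all probes, among them P2ry12 and Cx3cr1, receptors by which microglia sense their surroundings, and Csf1r, which they need to survive. P2ry12 had 0.05, -0.55 and 0.10 against 0.30 to 1.71 (difference -1.07 ± 0.29; limma, adjusted p = 0.0271). Csf1r had 5.31, 4.94 and 4.79 against 5.30 to 6.20. The summed level of the list, on the linear scale where the 75th percentile of an array is 1, ran from 62.9 to 91.0 caudally and from 88.0 to 188 elsewhere, and fraction 10, the coronal array with the weakest signal, held the highest level of every one of the 8. Within the slide of fractions 3 to 10, limma called 0 of the 8, with 4 at an unadjusted p under 0.05. Without fraction 2 or without fraction 3 there were 0 calls too, P2ry12 having adjusted p of 0.172 and 0.0547.

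Choroid plexus genes, from the epithelium that makes cerebrospinal fluid and fills part of the fourth and lateral ventricles, set fraction 3 apart from fraction 1. Ttr, the thyroid hormone carrier that this epithelium secretes, had levels of 1.14, 6.31 and 8.27 in fractions 1, 2 and 3, and 2.27 to 7.82 with the highest in fraction 7. Folr1, its folate receptor, had -2.69, 1.09 and 3.62, and Clic6, a chloride channel protein, had 0.02, 1.41 and 3.12. All 10 genes of the list were highest in fraction 3 among the caudal 3, and in 10 of 10 fraction 3 exceeded the mean of fractions 4 to 10. In the comparison of fractions 1 to 3 with 4 to 12 limma called 0 of the 10, beside 8.3% of all probes higher and 6.74% lower. At an unadjusted p under 0.05 there was 1. Within the slide of fractions 3 to 10 the genes of this list were not called either. Their summed linear level ran from 7.90 to 348 over the caudal fractions and from 13.6 to 248 over the others.

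The other lists of tissue that could enter a fraction gave 0 or 1 call each, beside 8.3% of all probes higher and 6.74% lower. Ependymal genes gave 1 of 5 higher, Rarres2, a chemoattractant (0.56 ± 0.17, not called without any 1 of the caudal fractions, with limma adjusted p from 0.0804 to 0.168, or without fraction 4, 5, 8, 9, 10 or 11), and 4 of the 5 were highest in fraction 3. Meningeal (10 genes), endothelial (7) and blood (3) lists gave 0 calls in limma, with 0, 3 and 1 at an unadjusted p under 0.05 and median differences of -0.11, 0.41 and 0.91, and 9 of 10 meningeal genes were highest in fraction 1. The summed linear level of meningeal genes ran from 38.4 to 72.7 caudally and from 29.4 to 124 elsewhere, and that of blood genes from 53.4 to 104 and from 17.7 to 99.8. Of muscle genes, 2 of 5 were tested and the actin gene Acta1 was lower (-1.38 ± 0.19). Schwann cell genes gave 0 limma calls of 2 tested (1 at an unadjusted p under 0.05). Of pineal genes only Aanat was tested and it was lower (-0.62 ± 0.13), but not called without fraction 1 (limma, adjusted p = 0.0509) or 2 (0.0584). With slide as a fixed term, neither Aanat (difference -0.33; limma, adjusted p = 0.331) nor Rarres2 (0.444) was called. The part of these tissues in the differences above was not tested.

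Most genes of the cerebral cortex list were lower caudally. Of 12 tested, 11 were called lower, beside 6.74% of all probes, and 0 higher, with a median difference of -4.97 (9 of the 12 above background on both sides, 3 through fractions 4 to 12 alone). Emx1 and Fezf2, factors of cortical projection neurons, were not above background in any caudal fraction and were at least 23.8-fold and 21.0-fold higher in fractions 4 to 12. Tbr1, a factor of deep layer neurons, had -2.10, -2.03 and -1.51 against 1.88 to 4.59 (difference -5.40 ± 0.49), and Lhx2, a LIM factor that sets cortical identity, had -0.62, -1.80 and -0.83 against 2.86 to 3.74 (difference -4.55 ± 0.24). For Emx1, Fezf2, Tbr1 and Lhx2 the sides did not overlap, and fraction 4 was on the side of the higher levels.

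The member of that list not called was Lamp5, an interneuron and layer gene, with 2.41, 1.84 and 1.68 against 0.99 to 2.72. Neurod6, whose level of -2.46 in fraction 12 lay below its caudal levels, and Cux2, with differences of -2.63 ± 0.77 and -0.55 ± 0.16, lost their call without any 1 of the caudal fractions (limma, adjusted p from 0.0695 to 0.125), which left 9 of the 12, and Neurod6 also without any 1 of fractions 5 to 10 and Cux2 without fraction 7 or 9 (0.0506 to 0.0603). Within the slide of fractions 3 to 10, all 12 cortical genes were negative and 10 were called, among them Emx1 (-5.77; limma, adjusted p = 0.0005).

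The 12 genes with the largest lower differences, among those above background on all arrays, held Tbr1 and Lhx2 and genes of varied function. Crym, a thyroid hormone binding protein, had levels of 0.21, -1.25 and -2.01 against 2.69 to 6.42 (difference -6.02 ± 0.68; limma, adjusted p = 0.000141). Kcnj4, an inward rectifier, had -0.31, -1.35 and -0.01 against 4.11 to 6.06 (-5.90 ± 0.38), Chrm1, the M1 muscarinic receptor, had -2.87, -3.92 and -3.93 against 1.09 to 2.70 (-5.56 ± 0.33), and Icam5, the telencephalic adhesion molecule telencephalin, had 0.50, -0.40 and -0.05 against 4.41 to 6.08 (-5.45 ± 0.28). Gda, a guanine deaminase, differed by -5.42 ± 0.26, Ddn, a dendritic protein, by -5.40 ± 0.41, Cort, the peptide cortistatin, by -5.17 ± 0.25, Rgs14, a G protein regulator of hippocampal neurons, by -5.15 ± 0.69, Ptk2b, a calcium-dependent kinase, by -4.79 ± 0.39 and Rprml by -4.47 ± 0.35. In all 12, with Tbr1 and Lhx2, each caudal fraction lay below each of the others, also within the slide of fractions 3 to 10, where every one was called (limma, highest adjusted p = 0.00937, for Ptk2b).

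Other forebrain lists gave at most 1 call in each direction over this divide. Of 10 striatal genes 1 was called lower, beside 6.74% of all probes lower and 8.3% higher, and 5 had an unadjusted p under 0.05 in that direction. The gene called was the dopamine receptor Drd1, which was not above background in any caudal fraction and was at least 13.4-fold higher elsewhere. Of 6 hippocampal genes, 3 were lower at an unadjusted p under 0.05, of which Ociad2 was called (-1.41 ± 0.21). Tdo2, an enzyme of tryptophan breakdown, was higher, with -3.20, -3.13 and -3.04 caudally and -6.62 to -4.20 elsewhere (2.54 ± 0.47). It was above background in 2 of the other fractions and passed the filter through the caudal side alone. With slide as a fixed term Tdo2 was not called (limma, adjusted p = 0.091). Of 6 thalamic genes, Synpo2 was higher (0.65 ± 0.18), beside 8.3% of all probes. It was not called without fraction 1 (limma, adjusted p = 0.141) or 2 (0.0838), or with slide as a fixed term (0.431). Hypothalamic (4 genes) and olfactory bulb (4 genes) lists gave 0 calls in limma's adjusted test, with 0 and 1 at an unadjusted p under 0.05, although S100a5, an olfactory neuron gene, had -2.07, -2.49 and -2.45 caudally and 7.61 in fraction 11, and Hcrt, the hypothalamic peptide hypocretin, had -1.50, -2.55 and -2.57 and 5.66 in fraction 7.

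The order of fractions 1, 2 and 3 is given as a description, since each is 1 array. Of the 2212 probes called higher, 1231 (55.7%) had their highest caudal level in fraction 2, 603 (27.3%) in fraction 1 and 378 (17.1%) in fraction 3, against 33.7%, 37.9% and 28.4% of all probes tested. Of the 1798 called lower, 915 (50.9%) were highest in fraction 1, and 850 (47.3%) were lowest in fraction 3, near the 44.0% of all probes tested that were lowest there. Purkinje cell genes were highest in fraction 2 for 8 and fraction 3 for 4 of 12, granule cell genes for 9 and 3 of 12, Bergmann genes in fraction 2 for 4 of 6, and Hox genes in fraction 1 for 13 of 14. With scaling to the array median, 372 called probes were highest in fraction 1 and 162 in fraction 3. Fractions 1 and 2 lie on another slide than fraction 3. Among the probes called with slide as a fixed term, 44 were highest in fraction 1 and 254 in fraction 3. That fit takes its caudal difference from fraction 3 alone, so its calls favour probes high there and its order is not read. With slide as a random term, which leans in part on the same slide, the counts were 270 and 338. The sizes of these classes thus depend on the processing, and the order of fractions 1 and 3 on which probes are called.

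Large changes were also found within the caudal end. Between fractions 1 and 3, 71 of the 2212 higher probes were more than 2-fold higher in fraction 1 (3.21%) and 100 in fraction 3 (4.52%), against 3.36% and 4.03% of all tested. Of the 1798 lower probes, 142 were more than 2-fold higher in fraction 1 (7.90%) and 51 in fraction 3 (2.84%). After the Hox genes, which led the falls, the largest rises from fraction 1 to 3 among called higher probes included those of Fscn3 (-3.62, -3.30 and -0.72), an actin bundler, Tgm5 (-2.77, -0.33 and 0.06), a transglutaminase, Zic2 (1.57, 3.70 and 3.43), Gpx2 (-2.22, -0.68 and -0.37), a glutathione peroxidase, and Car8. The genes that stood highest in fraction 2 over both neighbours were Krt71 (-3.40, -1.27 and -3.42), a keratin, Scn11a (-0.58, 0.56 and -0.45), a sodium channel better known from sensory neurons, Ccdc154 (-3.46, -2.30 and -3.18) and Drd4 (-2.77, -1.91 and -2.86), a dopamine receptor. Drd4 was not called without fraction 2 (limma, adjusted p = 0.083), nor Fscn3 without fraction 2 (0.0711) or 3 (0.212). The median absolute difference between fractions, over the 23056 probes above background on both sides, was 0.238 for 1 and 2, 0.242 for 2 and 3 and 0.323 for 1 and 3. More than 2-fold differences between fractions 1 and 3 were found for 6.03% of these probes.

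The divide between fractions 3 and 4 lies where called genes changed most. For 40.9% of the higher probes the largest fall between neighbours lay between fractions 3 and 4, and for 13.2% between 4 and 5, and for 64.4% of the lower probes the largest rise lay between 3 and 4. Over all 23056 probes that step was not the greatest in the series: the median absolute difference was 0.206 between 3 and 4, with 5.41% of probes over 2-fold, and 0.352 between 9 and 10, with 8.30% over 2-fold. Since the called probes were chosen for a difference over this divide, the place of their steps is a description. On a scale where the mean of fractions 5 to 12 is 0 and that of fractions 1 to 3 is 1, fraction 4 stood at a median of 0.42 in the higher and 0.35 in the lower probes.

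**Figure D4:**
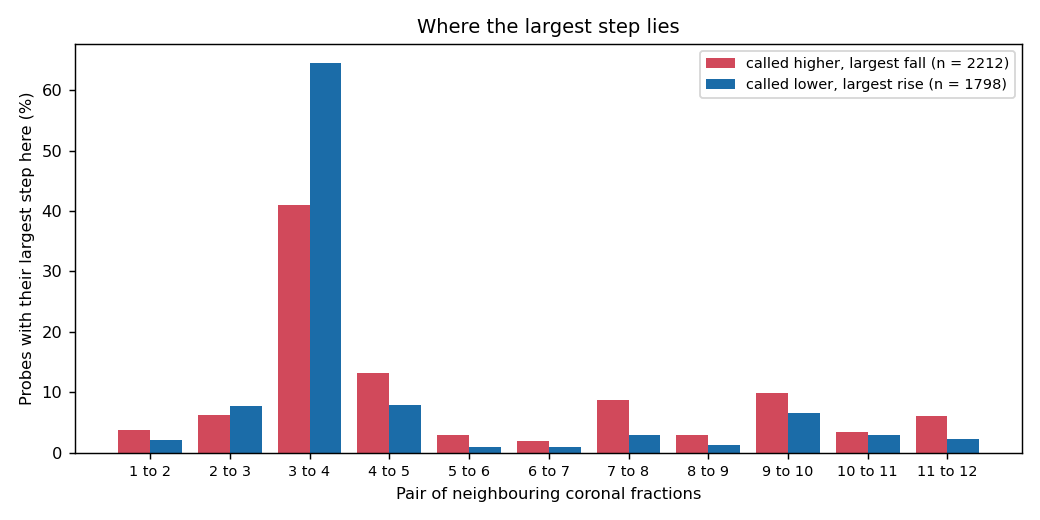
Share of called probes (%, bars from 0) whose largest step between neighbouring coronal fractions lies at each pair of fractions, for the 2212 probes called higher (largest fall) and the 1798 called lower (largest rise). Both sets peak at the step from fraction 3 to 4, at 40.9% and 64.4%.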

How the data were processed

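Gene expression was measured by 1-colour Agilent arrays in 12 coronal fractions of 1 mouse, 1 array a fraction. Per the labels, RNA was labelled with Cy3 by linear amplification. Per the file headers, Feature Extraction 10.5.1.1 produced the intensity values from an array annotated on mm9, and each deposited intensity already has its spot background subtracted. A deposited log2 table of 44721 probes held the same signals scaled to the 75th percentile, with an offset of 0.00269 to 0.00581 per coronal array. Scale and centring were thus known.

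Outlier-flagged spots were left out, spots of a probe were averaged and the log2 values were scaled to the 75th percentile of their array. Probes flagged well above background (at least 0.5 of their spots) on all arrays of at least 1 side were tested with limma 3.58.1 (R 4.3.3) by lmFit and eBayes, fractions 1 to 3 against 4 to 12, with Benjamini-Hochberg adjustment over 26664 probes and a threshold of 0.05. The fit dropped single missing values of 45 probes. The fit was tested on simulated data with independent arrays. That setting differs from neighbouring positions of 1 brain, so it does not measure the error of the calls here. Symbols were matched by accession to RefSeq (GRCm38.p6, names only) for 27229 of 55681 probes (48.9%), and the probe with the highest coronal mean stood for a gene.

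The coronal arrays had 75th percentile signals of 251 to 574, 24834 to 30324 probes well above background and 0 saturated spots, and the median SD of repeated spots was 0.056 to 0.070 log2. Precision is limited by the number of arrays. Lower bounds of a fold compare the mean of the brighter side with, on each array, the lowest signal that was well above background, or the level of the dim probe where that is higher. Named were the 3 markers, members of 27 gene lists, the 20 largest higher and 12 largest lower differences among probes above background on all 12 arrays, and 6, 6 and 4 genes by their order in fractions 1 to 3. Rule, lists and members were chosen with earlier results of these data known. Alternatives were other scalings (array median, quantile), normexp with an offset of 50, the deposited values, other filters, outlier spots kept, a mean-variance trend, slide as a fixed or random term, 1 slide alone, other reference fractions, other probes of a gene and leaving out each fraction. Some genes that the naming rule takes are counted in their lists but are not reported here by name.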

Additional observations from a re-analysis of the deposited data

Results flagged for a closer look

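Among fractions 4 to 12, the level of the single highest or lowest fraction stood apart from the other 8 in 23 of 116 named genes, judged by its gap to the next fraction as a share of the whole range (critical value 0.493 for 9 values, which chance passes in about 5.8 of 116 independent sets). These 9 fractions are different positions, so a fraction that stands apart is a place in the brain and not a repeated measurement.

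For 15 genes fraction 4, which adjoins the caudal fractions, stood above the other 8. The shares were Pcp2 (0.606), Gabra6 (0.601), Car8 (0.548), Cbln3 (0.713), Neurod1 (0.58), Fat2 (0.72), Gdf10 (0.539), Slc1a6 (0.567), Aqp6 (0.69), Atp2a3 (0.755) and Jaml (0.516) among cerebellar and other higher genes, Phox2a (0.753) and Dbh (0.717) among motor and monoamine genes, and Tgm5 (0.662) and Krt71 (0.533) among those named for their order within the caudal end. For 3 forebrain genes fraction 4 stood below the other 8, with shares of Icam5 (0.533), Gda (0.521) and Ptk2b (0.661).

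In the remaining 5 genes another fraction stood apart. Fraction 12 was the lowest for Mbp (0.587) and Spink8 (0.496), fraction 5 the highest for Prx (0.569), fraction 11 for Hoxb6 (0.556) and fraction 9 for Drd4 (0.511). Prx and Drd4 reached -0.99 and -2.86 in those fractions, and Hoxb6 -2.90.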

How the results depend on the processing

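No paired analysis was possible because the numbers of the fractions are positions and the 2 sides share none. The number of probes called higher was 2212, against 1286 with no filter on dim probes, 690 with slide as a fixed term, 540 within 1 slide, which rests on the same differences, and 3773 against fractions 4 to 10 alone. The number called lower was 1798, against 1078, 883 and 3522 in the last 3 settings. Of the 2212 and 1798, 549 and 903 were called with slide fixed. Leaving out 1 fraction gave 839 to 2716 higher and 876 to 2591 lower. Called higher probes with their peak in fraction 1 numbered 603, and 372 with the array median, 266 with no filter, 44 with slide fixed, 270 with slide as a random term and 1225 against fractions 4 to 10. Those with their peak in fraction 2 numbered 1231, and 789 with no filter, 392 with slide fixed and 1992 against fractions 4 to 10, and those in fraction 3 numbered 378, and 162 with the array median, 231 with no filter, 254 with slide fixed and 338 with slide random. Leaving out 1 of fractions 4 to 12 gave 436 to 755, 1052 to 1509 and 310 to 457. Quantile scaling, the deposited values, kept outliers and the trend left each of these counts within 1.5 times. The median difference of all probes, 0.02, was -0.14 with no filter.

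Among the 119 genes taken by the naming rule, signs turned for few, none of them called. Fabp7, a list member outside that rule, was positive within 1 slide. Gata3 gave -0.059 with normexp and -1.99 against fractions 4 to 6. Mbp gave -0.72 and -0.58 on other probes. Dynlrb2 gave 0.83 with slide fixed and within 1 slide. Against fractions 4 to 6, Oxt gave 0.55, Prkcd -0.022, Doc2g 0.85 and Omp 0.54, and Omp gave 0.24 against fractions 4 to 10. Of the 119 genes, 32 lost their call with slide fixed, 47 within 1 slide and 26 against fractions 4 to 6. The cause was not tested.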
